A study of Mus musculus with 12 samples.

Results

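In the mouse adrenal medulla, 5 genes that store, take up and break down catecholamines were followed: Slc18a1, Slc18a2, Slc6a2, Maoa and Maob. They were chosen for their function, by gene symbol, with earlier results of these data known. Each was read from the 1 probe set annotated to it. They make up 5 of the 19505 genes (19572 probe sets) that the array annotation pairs with 1 symbol. The study compared the response to hypoglycaemia caused by insulin in germ-free mice and in normally colonized mice, all male and of the C57Bl6 strain, with no further allele given and no age in the sources used here. All animals were fasted for 3 h and injected into the peritoneum, and the adrenal medullae were dissected and frozen 90 min later. The 4 groups of 3 animals were germ-free mice given regular human insulin (Humulin) at 2 IU/kg, germ-free mice given the same volume of saline, normally colonized mice given insulin at 2 IU/kg, and normally colonized mice given saline. Each animal had 1 Affymetrix array, and the 12 arrays limit the precision of every value.

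Chromaffin cells of the medulla pack noradrenaline and adrenaline into dense granules and release them into the blood, for example when blood glucose drops. The vesicular monoamine transporters, Slc18a1 (VMAT1) and Slc18a2 (VMAT2), exchange protons pumped into the granule for cytosolic amine. Slc6a2 encodes the noradrenaline transporter of the plasma membrane, best known from sympathetic neurons, which takes released noradrenaline back up. Amine that leaks out of granules, or is taken up, is deaminated at the outer mitochondrial membrane by monoamine oxidase A (Maoa), which prefers serotonin and noradrenaline, or monoamine oxidase B (Maob), which prefers phenylethylamine.

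The RefSeq promoter windows (assembly GRCm38.p6, the 250 bases before each annotated start and the first 50 from it) held 2 of the 5 genes. These were 1 storage gene and 1 breakdown gene, and both windows are shown. A link between their letters and the levels below was not tested. The Slc18a2 window lies at chr19:59260628-59260927 and the Maoa window at chrX:16619448-16619747, both on the plus strand. Capitals mark the cyclic AMP response element, TGACGTCA, and the GC box, GGGCGG or its reverse complement CCGCCC.
Slc18a2: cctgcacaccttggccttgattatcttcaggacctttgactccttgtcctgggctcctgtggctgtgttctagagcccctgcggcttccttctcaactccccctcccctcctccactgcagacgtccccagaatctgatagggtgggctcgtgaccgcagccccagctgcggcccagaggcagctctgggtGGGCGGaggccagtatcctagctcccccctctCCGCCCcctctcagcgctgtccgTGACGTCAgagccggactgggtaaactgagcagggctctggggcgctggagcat
Maoa: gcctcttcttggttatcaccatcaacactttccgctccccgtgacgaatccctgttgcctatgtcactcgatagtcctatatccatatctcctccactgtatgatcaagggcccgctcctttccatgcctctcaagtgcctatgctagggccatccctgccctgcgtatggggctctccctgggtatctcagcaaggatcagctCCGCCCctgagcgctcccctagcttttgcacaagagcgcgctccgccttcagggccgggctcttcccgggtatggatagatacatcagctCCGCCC
The Slc18a2 window held 1 cyclic AMP response element, whose first base lies at position -4 from the start base, and GC boxes at positions -59 on the plus strand and -27 on the minus strand. The Maoa window held no cyclic AMP response element and GC boxes at positions -46 and 44, both on the minus strand. CCAAT and TATAAA were also searched on both strands and were in neither window. Of 32851 mouse promoter windows of this length, 1.79% held TGACGTCA, 35.7% GGGCGG, 37.4% CCAAT and 13.6% TATAAA, and such matches describe the letters alone. Maoa and Maob neighbour each other on chromosome X with no gene lying whole between them, Slc18a1 and Slc6a2 are both on chromosome 8, and Slc18a2 is on chromosome 19.

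Values are log2 RMA intensities (background-corrected, normalised probe set brightness), so that a difference of 1 is a factor of 2 in brightness. They compare arrays within a gene, not genes with one another. The dissected tissue carried the defining chromaffin transcript, since Th (tyrosine hydroxylase) lay between 13.04 and 13.91 on all arrays, but the mean of 11 adrenal cortex markers was also high, at 12.05 to 12.16 in germ-free and 11.71 to 12.00 in colonized mice. The mean of 13 chromaffin markers was 10.16 to 10.92 in germ-free and 10.95 to 11.50 in colonized mice, so that neither score overlapped between colonization states. Colonized saline animal 2 stood apart. It correlated with the other arrays of its group at r = 0.954 to 0.968 across probe sets, whereas all other pairs within groups reached 0.987 to 0.993, and its mean of 7 sympathetic neuron markers was 9.95, against 6.97 to 7.31 in germ-free and 7.33 to 7.75 in the other colonized mice. Results of the 5 genes that rest on colonized saline mice are therefore given with and without this animal. Transcripts of tissues outside the adrenal also differed by group: the mean of 9 intestinal epithelium markers was 7.25 to 9.08 in germ-free saline mice and 4.75 to 5.22 in all others, and the mean of 6 pituitary markers was 6.99 to 8.05 in germ-free insulin mice and 5.10 to 5.85 in all others. The mean of 8 hepatocyte markers was 7.64 to 9.20 in germ-free insulin and 6.38 to 6.86 in colonized insulin mice, and 8.92 to 10.34 in germ-free saline and 6.11 to 11.13 in colonized saline mice, with animal 2 the highest. Their part in the results below was not tested. The 5222 negative control rows had array medians of 5.30 to 5.54 in germ-free and 4.70 to 4.83 in colonized mice, a difference that cannot be told apart from colonization.

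**Figure D1:**
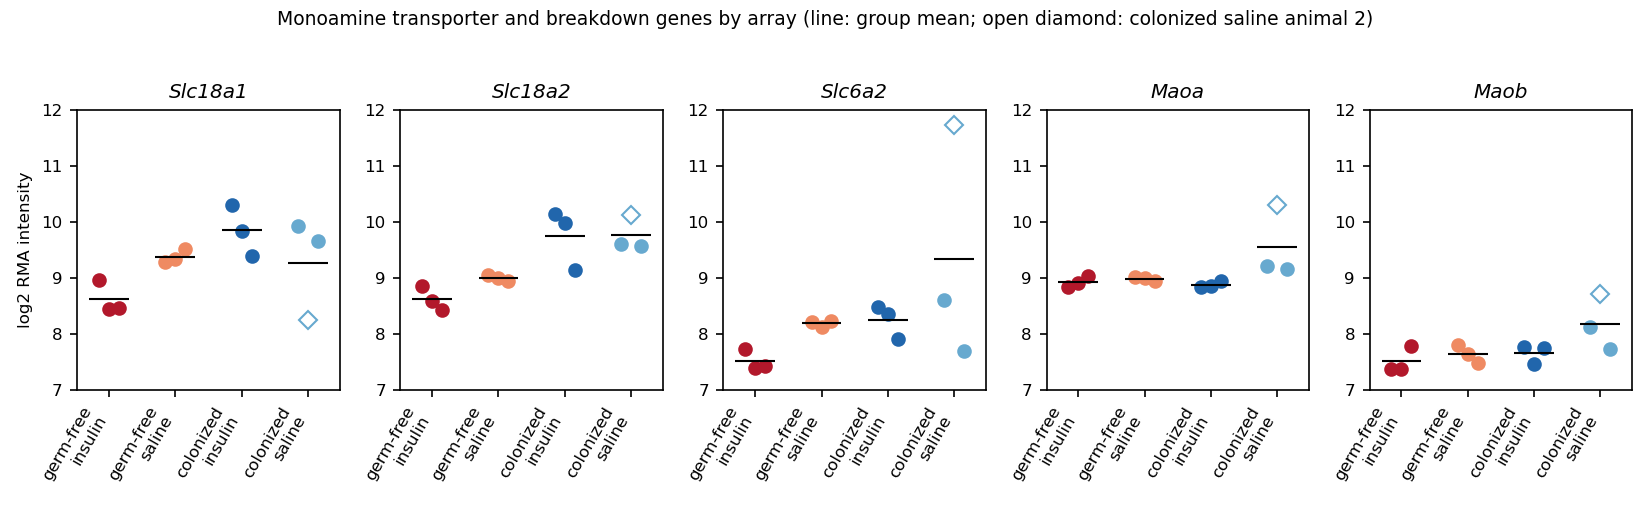
Log2 RMA intensity of the 5 genes on each array (vertical axis), by group (horizontal axis). Lines are group means, points are animals, and the open diamond is colonized saline animal 2, which is the highest array for Slc6a2 (11.73), Maoa and Maob and the lowest for Slc18a1 (8.24).

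Slc18a2, the vesicular transporter that chromaffin cells share with monoamine neurons, was lower in germ-free than in colonized medulla. Its level was 8.85, 8.58 and 8.42 in the 3 germ-free insulin mice, and 10.13, 9.99 and 9.14 in the 3 colonized insulin mice. After saline it was 9.05, 8.99 and 8.95 in germ-free mice, against 9.60, 10.13 and 9.56 in colonized mice. Every germ-free array was below every colonized array, under both treatments. After insulin the difference was -1.14 ± 0.23 (SE) on the log2 scale, 2.20-fold lower in germ-free mice (limma, adjusted p = 0.0137). After saline it was -0.76 ± 0.23 and did not pass (adjusted p = 0.0701). Averaged over both treatments, Slc18a2 was 1.94-fold lower in germ-free mice (-0.95 ± 0.17, adjusted p = 0.00281). Without colonized saline animal 2 these estimates were -1.14 ± 0.21 (adjusted p = 0.00442), -0.58 ± 0.24 (adjusted p = 0.139) and -0.86 ± 0.16 (adjusted p = 0.00247). The call after insulin held in 8 of the 12 fits that left out 1 array, with adjusted p values of 0.0671 and 0.0585 without colonized insulin animals 4 and 5, and of 0.0552 and 0.0680 without germ-free insulin animals 11 and 12. The call over both treatments held in 12 of 12.

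Insulin was not followed by a detectable change of Slc18a2 in either colonization state. In germ-free mice the insulin arrays lay below the saline arrays without overlap, by -0.38 ± 0.23 (adjusted p = 0.761). In colonized mice the difference was -0.01 ± 0.23 (adjusted p = 0.995), and it turned to 0.18 ± 0.24 without colonized saline animal 2. The difference of the insulin effects, germ-free minus colonized, was -0.38 ± 0.33 (adjusted p = 0.738), and -0.56 ± 0.32 without that animal (adjusted p = 0.582). Germ-free insulin mice had the lowest group mean (8.61 ± 0.21, SD, n = 3), germ-free saline mice the next (9.00 ± 0.05), and the colonized groups did not differ beyond their spread (9.75 ± 0.53 after insulin and 9.76 ± 0.32 after saline).

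Slc18a1, the vesicular transporter typical of endocrine cells, had levels of 8.95, 8.45 and 8.45 in germ-free insulin mice and 10.31, 9.84 and 9.39 in colonized insulin mice. These groups did not overlap, and the difference was -1.23 ± 0.36, as large as that of Slc18a2 but with a wider error, so that it missed the threshold (adjusted p = 0.0594). The error rested on colonized saline animal 2, since all 12 arrays share 1 estimate of the spread: without it the same difference had an SE of 0.21 and an adjusted p of 0.00301. After saline, Slc18a1 was 9.28, 9.34 and 9.52 in germ-free mice, against 9.92, 8.24 and 9.66 in colonized mice. Here animal 2 alone (8.24) lay below the germ-free arrays and the other colonized animals lay above them. The difference was 0.11 ± 0.36 with that animal and -0.41 ± 0.23 without it, and neither passed (adjusted p = 0.893 and 0.290). Over both treatments the germ-free difference was -0.56 ± 0.26 (adjusted p = 0.156), and without animal 2 it was -0.82 ± 0.16 (adjusted p = 0.00316).

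With all arrays, Slc18a1 was the 1 gene of the 5 with an unadjusted p under 0.05 for the difference between the insulin effects of the colonization states. In germ-free mice the insulin arrays were below all saline arrays (-0.76 ± 0.36, adjusted p = 0.618). In colonized mice the estimate had the other sign (0.57 ± 0.36, adjusted p = 0.542) and shrank to 0.06 ± 0.23 without animal 2. The difference of these effects, germ-free minus colonized, was -1.33 ± 0.51 (unadjusted p = 0.0230, limma adjusted p = 0.409), and -0.82 ± 0.31 without animal 2 (adjusted p = 0.388), so no difference in response passed across all probe sets. The lowest group mean was that of germ-free insulin (8.62 ± 0.29, SD, n = 3) and the highest that of colonized insulin (9.85 ± 0.46), with germ-free saline (9.38 ± 0.12) and colonized saline (9.27 ± 0.90) between them and not different beyond their spread.

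**Figure D2:**
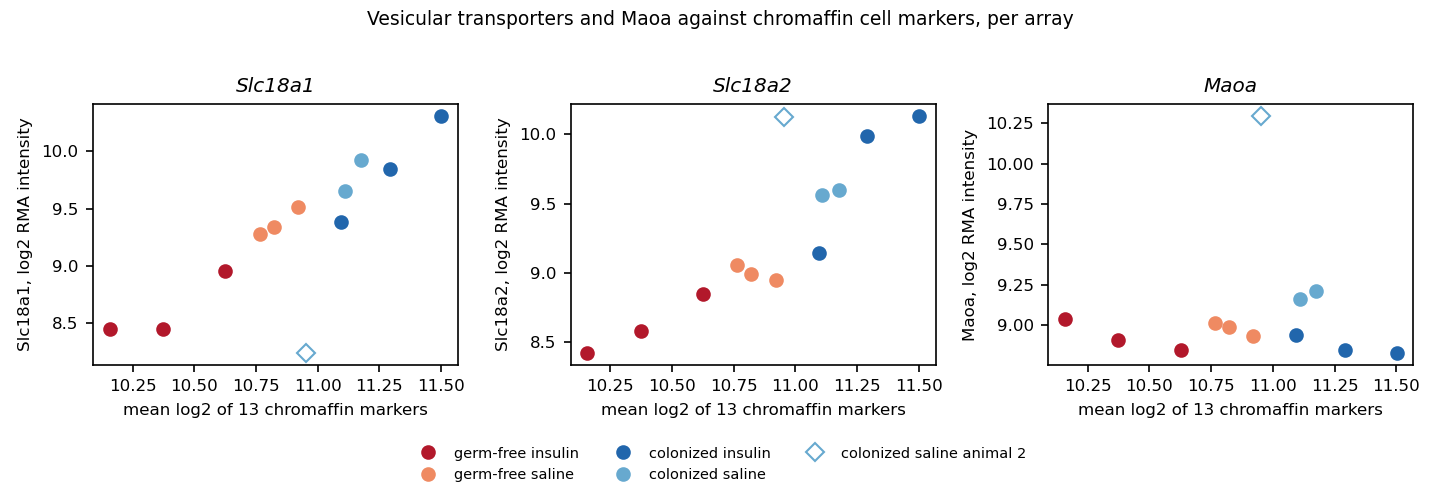
Log2 RMA intensity of Slc18a1, Slc18a2 and Maoa (vertical axes) against the mean log2 intensity of 13 chromaffin markers (horizontal axes), 1 point per array, coloured by group. Germ-free insulin arrays have the lowest marker means (10.16 to 10.63) and low Slc18a1 and Slc18a2, whereas their Maoa (8.84 to 9.04) is close to that on germ-free saline (8.93 to 9.01) and colonized insulin arrays (8.83 to 8.94).

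After insulin, chromaffin markers and both vesicular transporters lay lower in germ-free than in colonized mice. All 13 measured markers were below 0 for germ-free minus colonized after insulin (median -0.93) and 8 were called lower, against 55.4% of all probe sets below 0 and 5.15% called lower. Over both treatments all 13 were below 0 (median -0.59) and 7 were called lower, against 11.5% of all probe sets. Without colonized saline animal 2, 11 of 13 were called lower after insulin and 11 of 13 over both treatments, where 14.6% and 25.1% of all probe sets were called. After saline 1 was then called lower, against 9.9% called. After saline 10 of 13 were below 0 (median -0.20) and 0 were called by limma, with 4 at an unadjusted p under 0.05. For insulin minus saline 11 of 13 were below 0 in germ-free mice (median -0.50, 2 called lower), and 11 of 13 were above 0 in colonized mice (median 0.20, 0 called by limma, 3 at an unadjusted p under 0.05). The difference of these effects was below 0 for 12 of 13 markers (median -0.68) with 0 called by limma and 8 at an unadjusted p under 0.05. Slc18a1 had the same signs in these 3 comparisons, but the other sign after saline with all arrays (0.11 ± 0.36). Slc18a2 was at -0.01 ± 0.23 for insulin minus saline in colonized mice, where most markers were above 0. In bulk tissue, fewer cells of a type and less RNA per cell cannot be told apart. With the marker mean as a covariate, Slc18a2 differed by -0.26 ± 0.54 after insulin (adjusted p = 0.946) and by -0.39 ± 0.35 over both treatments (adjusted p = 0.663), and Slc18a1 by 0.86 ± 0.66 after insulin (adjusted p = 0.840), where the marker mean itself did not overlap between colonization states. With the cortex marker mean as a covariate Slc18a2 differed by -0.68 ± 0.27 after insulin (adjusted p = 0.226) and by -0.37 ± 0.27 over both treatments (adjusted p = 0.562). The mean of 11 adipocyte markers was 10.08 to 10.46 in germ-free insulin mice and 6.36 to 8.60 in colonized insulin mice, and with it as a covariate the Slc18a2 difference after insulin was -0.99 ± 0.35 (adjusted p = 0.245). Slc18a1 after insulin differed by -0.09 ± 0.34 with the adipocyte covariate (adjusted p = 0.9325) and by -1.48 ± 0.51 with the cortex covariate (adjusted p = 0.177).

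Slc6a2, the noradrenaline uptake transporter, had the widest spread of the 5 genes within a group (SD 2.12 in colonized saline mice, n = 3). Germ-free mice had 7.72, 7.39 and 7.43 after insulin and 8.22, 8.11 and 8.23 after saline. Colonized mice had 8.48, 8.36 and 7.90 after insulin and 8.60, 11.73 and 7.69 after saline. Colonized saline animal 2 was thus far above every other array, and in that animal Prph, Nefl, Nefm and Gap43, a neuronal intermediate filament protein, 2 neurofilament subunits and a growth cone protein, were high as well, with Prph at 10.07 against 4.93 to 6.24 elsewhere. Markers of other cells were also highest in this animal. Its fibroblast and smooth muscle mean was 10.23, against 7.66 to 8.97 on the other arrays, and its mast cell mean 5.99, against 5.20 to 5.51. Its Schwann, macrophage and endothelial means were the highest by smaller margins. The part of neuronal or other tissue in its Slc6a2 value was not tested. Most neuron markers were also lower on the germ-free arrays: for germ-free minus colonized over both treatments, 3 of 7 were called lower with all arrays and 5 of 7 without animal 2. After insulin 0 of 7 were called by limma with all arrays (3 lower at an unadjusted p under 0.05) and 4 of 7 were called lower without it. In that comparison 2 of 7 were above 0, and 1 was higher at an unadjusted p under 0.05 in the limma fit without animal 2.

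After insulin Slc6a2 was lower on every germ-free than on every colonized array, but not called (-0.73 ± 0.72, adjusted p = 0.616). Leaving out animal 2, which is in neither of these groups, brought the SE to 0.21 and the adjusted p to 0.0369. After saline the germ-free difference was -1.15 ± 0.72 with animal 2 (adjusted p = 0.362) and 0.04 ± 0.23 without it (adjusted p = 0.935). In germ-free mice Slc6a2 was lower on every insulin array than on every saline array, by -0.67 ± 0.72 (adjusted p = 0.927), or ± 0.21 without animal 2 (adjusted p = 0.182). In colonized mice the insulin effect was -1.10 ± 0.72 with animal 2 (adjusted p = 0.555) and 0.10 ± 0.23 without it (adjusted p = 0.922). The difference of the insulin effects was 0.42 ± 1.02 with that animal (adjusted p = 0.923) and -0.77 ± 0.31 without it (adjusted p = 0.418), so its sign turned. Over both treatments the germ-free difference was -0.94 ± 0.51 (adjusted p = 0.229), and -0.35 ± 0.16 without animal 2 (adjusted p = 0.134). With the mean of the neuron markers as a covariate it was 0.35 ± 0.11 (adjusted p = 0.0451), and after insulin -0.08 ± 0.13 (adjusted p = 0.730). This covariate was added after seeing the data. Animal 2 set most of its range (9.95, against 6.97 to 7.75 on the other arrays), and the covariate was not fitted without that animal. Slc6a2 lay under the 95th percentile of the array's own negative controls on all 6 germ-free arrays and on 0 of 6 colonized arrays, so its germ-free values are close to the background of these arrays.

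**Figure D3:**
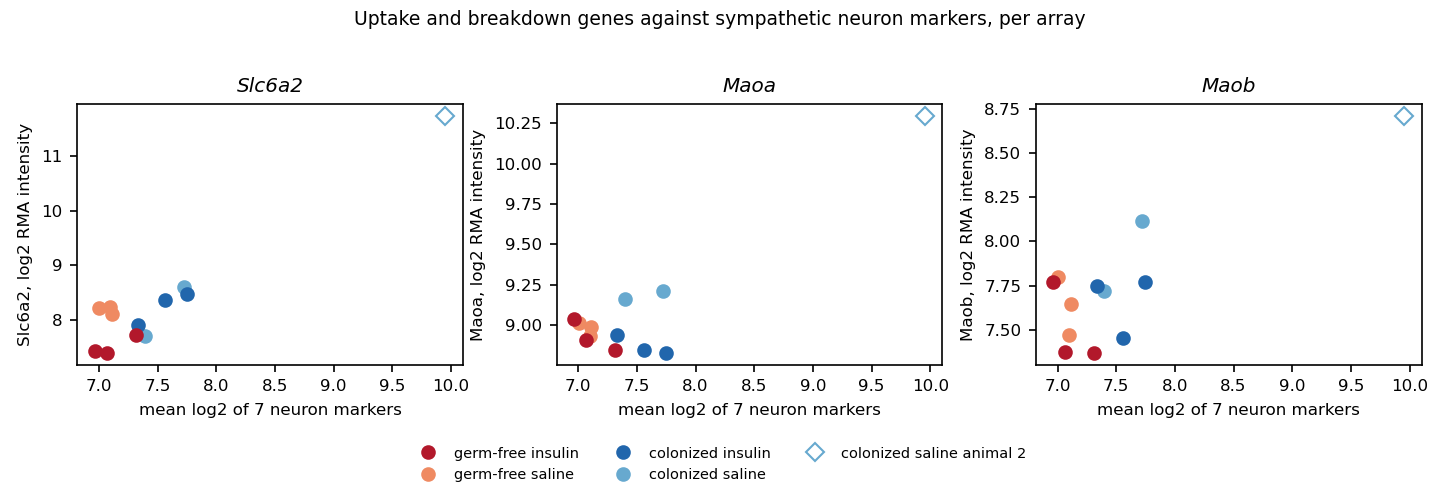
Log2 RMA intensity of Slc6a2, Maoa and Maob (vertical axes, each on its own scale) against the mean log2 intensity of 7 sympathetic neuron markers (horizontal axes), 1 point per array. Colonized saline animal 2 (open diamond, marker mean 9.95) is the highest array for all 3 genes, and the other 11 arrays have marker means of 6.97 to 7.75.

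Maoa was nearly constant on 11 of the 12 arrays. Its level was 8.84, 8.91 and 9.04 in germ-free insulin mice, 9.01, 8.99 and 8.93 in germ-free saline mice, and 8.83, 8.84 and 8.94 in colonized insulin mice, whereas colonized saline mice had 9.21, 10.30 and 9.16. The colonized saline arrays were above all others, by a small margin outside animal 2. Insulin minus saline in colonized mice was -0.69 ± 0.23 (unadjusted p = 0.0118, limma adjusted p = 0.301), and -0.32 ± 0.10 without animal 2 (adjusted p = 0.298), so the order of the groups stayed while the estimate was smaller. Germ-free minus colonized after saline was -0.58 ± 0.23 (adjusted p = 0.153), and -0.21 ± 0.10 without animal 2 (adjusted p = 0.208). After insulin Maoa differed between germ-free and colonized mice by 0.06 ± 0.23 (adjusted p = 0.921), and in germ-free mice insulin minus saline was -0.05 ± 0.23 (adjusted p = 0.992). The difference of the insulin effects was 0.64 ± 0.33 (adjusted p = 0.547) and 0.27 ± 0.13 without animal 2 (adjusted p = 0.522).

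Maob had 7.37, 7.38 and 7.77 in germ-free insulin mice and 7.77, 7.45 and 7.75 in colonized insulin mice. After saline it was 7.80, 7.64 and 7.47 in germ-free mice, against 8.11, 8.71 and 7.72 in colonized mice. Every pair of groups overlapped. The germ-free difference was -0.54 ± 0.21 after saline (adjusted p = 0.149), or -0.28 ± 0.17 without animal 2 (adjusted p = 0.331), and -0.15 ± 0.21 after insulin (adjusted p = 0.751). Insulin minus saline was -0.13 ± 0.21 in germ-free mice (adjusted p = 0.961) and -0.52 ± 0.21 in colonized mice (unadjusted p = 0.0313, adjusted p = 0.377), and without animal 2 the colonized estimate was -0.26 ± 0.17 (adjusted p = 0.629). The difference of the insulin effects was 0.39 ± 0.30 (adjusted p = 0.706), and 0.13 ± 0.23 without animal 2. Maob was under the 95th percentile of negative controls on all 6 germ-free arrays and on 1 colonized array. Slc18a1, Slc18a2 and Maoa were above it on all 12, but both vesicular transporters were close to it in germ-free insulin mice. There, Slc18a1 was above 95.2% to 97.5% of the negative controls and Slc18a2 above 95% to 97.2%. In colonized insulin mice these shares were 98.8% to 99.2% and 98.6% to 99.1%. The part of background in their differences was not tested.

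**Figure D4:**
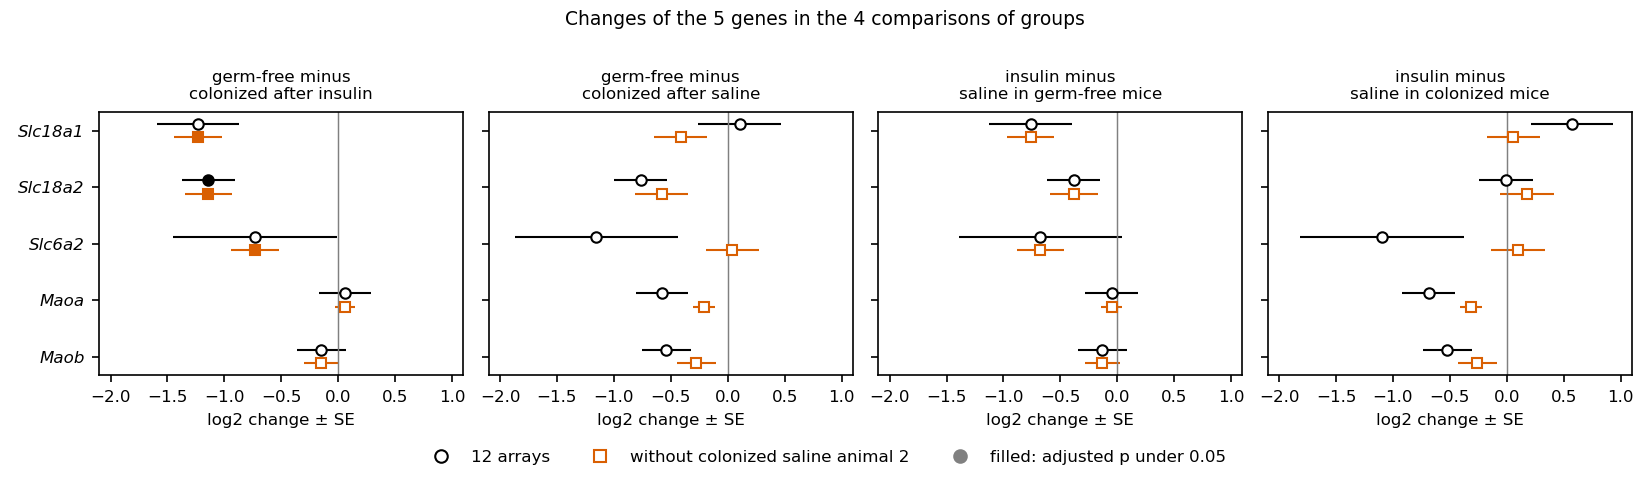
Log2 change (horizontal axes) of the 5 genes in the 4 comparisons of groups, with bars for the SE of the limma fit. Circles use 12 arrays, squares leave out colonized saline animal 2, and filled symbols have an adjusted p under 0.05: Slc18a2 after insulin with all arrays, and Slc18a1, Slc18a2 and Slc6a2 after insulin without that animal.

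Counts over the 5 genes were read against those over all 19572 probe sets. For germ-free minus colonized after insulin, 1 of 5 was called (Slc18a2), against 7.77% of all probe sets called and 5.15% called lower. At an unadjusted p under 0.05 there were 2 of 5 against 22.5%, and 3 of 5 had groups that did not overlap (Slc18a1, Slc18a2 and Slc6a2), against 31.8%. After saline 0 of 5 were called by limma, against 6.9%. There, 3 of 5 had an unadjusted p under 0.05 (Slc18a2, Maoa and Maob) against 24%, and 2 of 5 did not overlap (Slc18a2 and Maoa) against 27.3%. For the mean over both treatments 1 of 5 was called (Slc18a2), against 17.6% called and 11.5% called lower, and 3 of 5 against 31.4% had an unadjusted p under 0.05. The median germ-free difference of the 5 genes was -0.73 after insulin and -0.58 after saline (-0.28 without colonized saline animal 2), whereas that of all probe sets was -0.03 and -0.04. The median after insulin is the value of Slc6a2, whose germ-free levels are close to background. Without that animal 3 of 5 were called after insulin (Slc18a1, Slc18a2 and Slc6a2) against 14.6%, 2 of 5 over both treatments (Slc18a1 and Slc18a2) against 25.1%, and 0 of 5 after saline against 9.9%. At an unadjusted p under 0.05 limma then gave 3 of 5 after insulin against 28%, 3 of 5 over both treatments against 36.9%, and 1 of 5 after saline (Slc18a2) against 26.5%.

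For insulin minus saline, 0 of the 5 genes were called in germ-free mice (0.439% of all probe sets), in colonized mice (0.153%), for the mean over both states (0.419%) or for the difference of the effects (0.0358%). At an unadjusted p under 0.05 limma gave 0 of 5 in germ-free mice against 8.31%, 2 of 5 in colonized mice (Maoa and Maob) against 11.8%, 1 of 5 for the mean (Maoa, -0.37 ± 0.16) against 10.3%, and 1 of 5 for the difference (Slc18a1) against 9.97%. Groups did not overlap for 3 of 5 genes in germ-free mice (Slc18a1, Slc18a2 and Slc6a2) against 19.7%, and for 1 of 5 in colonized mice (Maoa) against 14.1%. The germ-free comparisons share arrays with the insulin comparisons, so their values are not independent. The mean insulin effects of the others were -0.09 ± 0.26 for Slc18a1, -0.19 ± 0.17 for Slc18a2, -0.89 ± 0.51 for Slc6a2 and -0.33 ± 0.15 for Maob (adjusted p = 0.936, 0.741, 0.591 and 0.492). Without animal 2 the mean insulin effects were -0.35 for Slc18a1, -0.10 for Slc18a2, -0.29 for Slc6a2, -0.18 for Maoa and -0.20 for Maob. Leaving out animal 2, 0 of 5 were called for insulin in germ-free mice (1.03% of all probe sets), in colonized mice (0.102%), for the mean (0.68%) or for the difference (0.0715%). At an unadjusted p under 0.05 limma then gave 2 of 5 in germ-free mice (Slc18a1 and Slc6a2) against 12.3%, 1 of 5 in colonized mice (Maoa) against 10.7%, 2 of 5 for the mean (Slc18a1 and Maoa) against 12.5%, and 2 of 5 for the difference (Slc18a1 and Slc6a2) against 10.4%. The mean germ-free differences of Maoa and Maob were -0.26 ± 0.16 and -0.35 ± 0.15 (adjusted p = 0.308 and 0.141), and -0.07 ± 0.07 and -0.21 ± 0.11 without animal 2.

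Genes that work beside the 5 were taken from lists of other amine transporters, other breakdown enzymes, the vesicular proton pump and the synthesis enzymes. Of 9 other transporters 7 were measured, with Slc22a3 not analysed here, and after insulin 2 were called lower in germ-free mice (median of the list -0.12). Slc29a4, a low-affinity monoamine transporter of the plasma membrane, was 8.65, 8.47 and 8.26 in germ-free insulin mice and 10.04, 9.87 and 9.38 in colonized insulin mice, a difference of -1.31 ± 0.24 (adjusted p = 0.00842). Slc6a4, the serotonin transporter, was 10.45, 9.96 and 9.78 in germ-free insulin mice and 11.53, 11.06 and 11.21 in colonized insulin mice (-1.20 ± 0.34, adjusted p = 0.0489). Both sets of groups were separate, as they were for Slc18a1 and Slc18a2. After saline 0 of the 7 were called by limma, with 0 at an unadjusted p under 0.05, and the widest changes were -0.35 ± 0.19 for Slc18a3, the vesicular acetylcholine transporter, and -0.29 ± 0.24 for Slc29a4. Without colonized saline animal 2 again 0 were called, with 3 at an unadjusted p under 0.05, and the widest were 0.62 ± 0.20 for Slc47a1, a proton-coupled exporter of organic cations, and -0.60 ± 0.18 for Slc29a4, while Slc18a3 was at -0.14 ± 0.16. Over both treatments Slc29a4 alone was called (-0.80 ± 0.17, adjusted p = 0.00775). Slc6a3, the dopamine transporter, was dim on all arrays (5.32 to 6.24) and differed by 0.18 ± 0.18 after insulin (adjusted p = 0.614).

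The proton pump (V-ATPase) supplies the gradient that drives Slc18a1 and Slc18a2. Of 17 listed subunits 16 were measured, and for germ-free minus colonized 14 were below 0 after insulin (median -0.26) and 11 after saline (median -0.19). After insulin 3 were called lower: Atp6v1b2 (-0.84 ± 0.12, adjusted p = 0.00305) and Atp6v1a (-0.49 ± 0.12, adjusted p = 0.0337), which form the catalytic head, and Atp6v0a1 (-0.52 ± 0.14, adjusted p = 0.0400), a membrane subunit. Atp6v0e2 differed by -0.66 ± 0.19 (adjusted p = 0.0588). After saline Atp6v1g1 alone was called (-0.36 ± 0.10, adjusted p = 0.0435), while Atp6v1g2 differed by -0.54 ± 0.25 and Atp6v0e2 by -0.48 ± 0.19. Without colonized saline animal 2 these were -0.14 ± 0.12 and -0.71 ± 0.16, the second of them called (adjusted p = 0.0206). Over both treatments 5 were called lower, from Atp6v1b2 (-0.60 ± 0.09) and Atp6v0e2 (-0.57 ± 0.14) to Atp6v1a (-0.42 ± 0.09), Atp6v0d1 (-0.41 ± 0.09) and Atp6v1g1 (-0.33 ± 0.07). Of all probe sets, 55.4% were below 0 after insulin and 55.9% after saline. Called lower were 5.15% after insulin and 11.5% over both treatments, and 6.9% were called in either direction after saline.

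Of the 4 synthesis enzymes, all of which are also chromaffin markers here, 3 were called lower in germ-free mice after insulin: Ddc (aromatic amino acid decarboxylase, -1.06 ± 0.18, adjusted p = 0.00695), Dbh (dopamine beta-hydroxylase, -0.93 ± 0.19, adjusted p = 0.0130) and Pnmt (which makes adrenaline, -1.22 ± 0.27, adjusted p = 0.0202). Th differed by -0.54 ± 0.16 (adjusted p = 0.0642). After saline 0 of the 4 were called by limma, with Ddc at an unadjusted p under 0.05 (-0.52 ± 0.18, adjusted p = 0.108) and Th at 0.07 ± 0.16. Without colonized saline animal 2 Th was at -0.11 ± 0.14 and the median of the 4 moved to -0.22, against -0.02 with all arrays. Over both treatments Ddc (-0.79 ± 0.13) and Dbh (-0.50 ± 0.13) were called lower.

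Of 15 other breakdown enzymes 11 were measured, and these did not share a direction. After insulin Sult1a1, a sulfotransferase of phenols, was called higher in germ-free mice (0.96 ± 0.24, adjusted p = 0.0344) and Adh5 (alcohol dehydrogenase class III) lower (-0.36 ± 0.10, adjusted p = 0.0461). Aoc3, a copper amine oxidase, had the widest estimate, with 7.91, 8.13 and 8.52 in germ-free insulin mice and 5.48, 5.29 and 7.59 in colonized insulin mice (2.07 ± 0.71, adjusted p = 0.101). Adipocyte markers were higher on the same germ-free arrays, as given above, and their part in this difference was not tested. After saline Adh5 alone was called (-0.42 ± 0.10, adjusted p = 0.0304). Aldehyde dehydrogenases, which oxidise the aldehydes that monoamine oxidases make, were lower over both treatments for Aldh1b1 (-0.61 ± 0.19, adjusted p = 0.0465) and Aldh2 (-0.41 ± 0.11, adjusted p = 0.0300), as was Adh5 (-0.39 ± 0.07), whereas Sult1a1 was higher (0.59 ± 0.17, adjusted p = 0.0337). Aldh1a1 differed by -0.68 ± 0.21 between germ-free and colonized mice after saline (adjusted p = 0.0761).

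**Figure D5:**
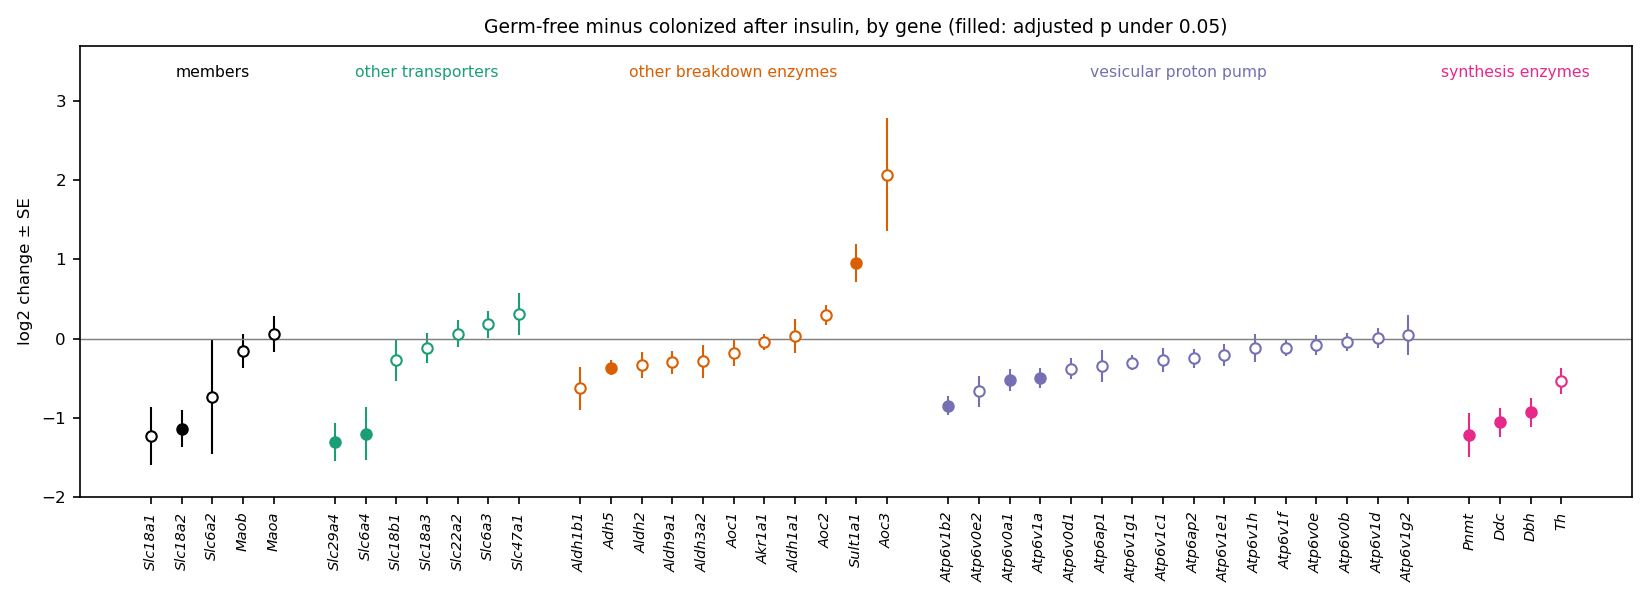
Log2 change, germ-free minus colonized after insulin (vertical axis, bars are SE), for the 5 genes and 4 lists of related genes along the horizontal axis. Filled points have an adjusted p under 0.05: Slc18a2, 2 other transporters, 2 other breakdown enzymes, 3 proton pump subunits and 3 synthesis enzymes, of which Sult1a1 alone lies above 0.

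Without colonized saline animal 2 the counts called for germ-free minus colonized after insulin were 2 lower of 7 other transporters, 5 lower of 16 pump subunits, 4 lower of 4 synthesis enzymes, and 2 higher and 3 lower of 11 other breakdown enzymes. Over both treatments they were 1 higher and 3 lower, 10 lower, 4 lower, and 2 higher and 4 lower. In the same fits 2854 and 4904 of all probe sets were called, against 1521 and 3454 with all arrays. After saline 3 pump subunits (Atp6v0e2, Atp6v1a and Atp6v1g1) and 3 breakdown enzymes (Aldh1b1, Aldh2 and Adh5) were then called lower.

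No gene of these 4 lists was called by limma for insulin in either colonization state, for the mean of both or for the difference, with or without animal 2. At an unadjusted p under 0.05 there were 2 other transporters, 1 other breakdown enzyme, 1 pump subunit and 3 synthesis enzymes in germ-free mice, all lower with insulin, and 0, 2, 3 and 1 in colonized mice. The widest insulin effects in germ-free mice were -0.75 ± 0.34 for Slc6a4, -0.64 ± 0.24 for Slc29a4, -0.74 ± 0.27 for Pnmt, -0.57 ± 0.19 for Dbh, 0.83 ± 0.71 for Aoc3, -0.43 ± 0.17 for Aoc1 (diamine oxidase), -0.27 ± 0.12 for Atp6v1b2 and 0.15 ± 0.16 for Atp6v1c1. In colonized mice they were 0.55 ± 0.34 for Slc6a4, 0.42 ± 0.27 for Slc18b1 (a vesicular polyamine transporter), 0.51 ± 0.27 for Pnmt, 0.38 ± 0.16 for Th, -1.27 ± 0.71 for Aoc3, -0.90 ± 0.21 for Aldh1a1, 0.46 ± 0.14 for Atp6v0a1 and -0.61 ± 0.25 for Atp6v1g2. Without animal 2 the colonized values were 0.07 for Slc6a4, 0.0014 for Slc18b1, 0.20 for Pnmt, 0.20 for Th, -0.48 for Aoc3, -0.86 for Aldh1a1, 0.30 for Atp6v0a1 and -0.21 for Atp6v1g2. All 4 synthesis enzymes, Slc6a4 and Slc29a4 had the same pair of signs as Slc18a1, below 0 in germ-free and above 0 in colonized mice, and 11 of 13 chromaffin markers were below 0 in germ-free and 11 of 13 above 0 in colonized mice. For Slc6a4, Slc29a4, Pnmt and Dbh the differences of insulin effects were -1.30 ± 0.47, -1.02 ± 0.34, -1.25 ± 0.39 and -0.86 ± 0.27, with limma adjusted p values of 0.385, 0.359, 0.331 and 0.331. Without animal 2 these differences were -0.82, -0.71, -0.94 and -0.77.

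The genes whose levels were most like each member over the 12 arrays were ranked by Pearson r, as a description in which all points share the 4 groups and animal 2. Slc18a1 was nearest to C1ql1 (r = 0.980, Spearman rho = 0.951), Asl (0.969) and Pcsk1 (0.968), the last a prohormone convertase of secretory granules. Slc18a2 was nearest to Mapre3 (r = 0.971, rho = 0.958), Ache (0.963), which encodes acetylcholinesterase, and Phactr1 (0.962). Slc6a2 was nearest to Cend1 (r = 0.988, rho = 0.867), Apba1 (0.977) and Syt2 (0.975), a synaptic vesicle synaptotagmin. Maoa was nearest to Prph (r = 0.969), Cilp (0.966) and Slc10a2 (0.966), but its rho with Prph was 0.503, and Prph was not among the 3 nearest without animal 2. Maob was nearest to Zc2hc1a (r = 0.966, rho = 0.839), Kif3a (0.940) and Cdk14 (0.938). Over the 11 arrays without animal 2, the nearest genes were Faim2 for Slc18a1 (r = 0.994), Syn2 for Slc18a2 (0.978), Chrna3, a subunit of the ganglionic nicotinic receptor, for Slc6a2 (0.941), Arsk for Maoa (0.956) and Tbc1d8b for Maob (0.943). Ache was among the 3 nearest to Slc18a2 in both rankings. Over deviations from the group means the nearest were Diras2 for Slc18a1 (r = 0.988), Rusc1 for Slc18a2 (0.947), Tubb3 for Slc6a2 (0.994), Tmeff1 for Maoa (0.986) and Ap1s2 for Maob (0.970). These deviations were taken on all 12 arrays, with animal 2 kept, so they also carry its distance from its group.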

How the data were processed

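Expression was measured on 12 Affymetrix arrays, 1 per animal. The values deposited by the authors are on the log2 scale; RMA and limma are named per the submitters' processing notes, with versions, build and joint processing of all arrays not given in the sources used here. No column was left unused (0). Gene symbols came from the platform annotation, which paired 19572 of 28846 rows with 1 symbol. Comparisons were made in limma 3.58.1 under R 4.3.3 (lmFit with a mean for each group, eBayes, 7 comparisons, 8 residual degrees of freedom), and p values were adjusted by Benjamini-Hochberg over the 19572 probe sets and called under 0.05. Errors beside changes are SEs of that fit. The pipeline was tested on simulated data.

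The 5 genes and all lists were chosen with earlier results of these data known. Named beside the 5 were the called genes and the 2 widest changes of each list per comparison, a fixed set (Slc6a3, Slc6a4, Slc22a3, Slc29a4, Th, Dbh, Pnmt), and the 3 genes most like each of the 5, with symbols of the form Gm plus digits or ending in Rik not named. Alternatives covered the features tested, the omission of dim probe sets (with a mean below 6.85), normalization, variance model, array weights, cell marker covariates, the arrays fitted and the threshold. The covariate of sympathetic neuron markers, and that of chromaffin markers without colonized saline animal 2, were added after seeing the data. The number of arrays limits the precision.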

Additional observations from a re-analysis of the deposited data

How the results depend on the processing

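No paired analysis was possible because the numbers in the sample titles are not shared between groups. For the 35 results of the 5 genes, 26 settings gave 860 alternative values, of which 772 kept direction and side of the threshold, 60 changed sign, 19 newly passed and 9 no longer passed. Each of the 5 genes has 1 probe set, so no other could be tried, and fits to the compared groups alone gave no value for the difference or the means. Germ-free minus colonized over both treatments was called for Slc18a2 under all settings except the chromaffin and cortex covariates, the chromaffin one also without animal 2. The cause of the changes below was not tested unless stated.

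Leaving out 1 array gave 0 to 1 genes called after saline, 0 to 3 after insulin and 1 to 2 over both treatments. In these fits the sign turned for the Slc18a1 mean insulin effect (-0.35 to 0.069) and difference after saline (-0.41 to 0.43), the Slc18a2 insulin effect in colonized mice (-0.20 to 0.30), and for Slc6a2 the insulin effect in colonized mice (-1.92 to 0.10), the difference of insulin effects (-0.77 to 1.25) and the difference after saline (-1.98 to 0.042). Slc18a1 after insulin was called in 3 of 12 such fits, and Maob after saline was called without colonized saline animal 3 (-0.77, adjusted p = 0.0406).

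Without dim probe sets, where fewer were tested, Slc18a2 passed after saline (1 gene called) and Slc18a1 after insulin (2 called). A threshold of 0.10 called 1 gene after saline and 2 after insulin. Fits to the compared groups alone called 3 genes after insulin, and 2 for insulin in germ-free mice (Slc18a1, adjusted p = 0.0457, and Slc6a2, adjusted p = 0.0262). Median centring turned the Slc18a2 insulin effect in colonized mice to 0.037. Array weights called 2 genes after insulin and 2 over both treatments (Slc18a1 and Slc18a2), and turned the insulin effect in colonized mice to 0.26 for Slc18a2 and 0.11 for Slc6a2, the Slc6a2 difference of effects to -0.83 and the Slc18a1 difference after saline to -0.24.

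The chromaffin covariate called 0 genes after insulin and 0 over both treatments. It turned Slc18a1 to 0.28 for insulin in germ-free mice, 0.20 for the difference of effects, 0.18 for mean insulin, 0.86 after insulin and 0.77 over both treatments; Slc18a2 to 0.054 for insulin in germ-free mice and 0.27 for the difference; and Maoa after insulin to -0.78. The differences of effects of Slc6a2 and Maob turned to -0.25 and -0.18. With animal 2 also left out it again called 0 and 0, and gave Slc18a1 -0.19 for insulin in colonized mice, 0.16 for the difference, 0.25 after insulin and 0.17 over both treatments. It gave Slc18a2 0.25 for insulin in germ-free mice, 0.30 for the difference, 0.11 for mean insulin, 0.15 after insulin and 0.0004 over both treatments. It gave Slc6a2 -0.13 for the difference, 0.37 after saline, 0.23 after insulin and 0.30 over both treatments, Maoa -0.26 after insulin and Maob -0.16 for the difference.

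The cortex covariate called 0 genes after insulin and 0 over both treatments. It turned Slc6a2 to 0.11 for insulin in colonized mice, -0.53 for the difference of effects, 1.56 after saline, 1.03 after insulin and 1.29 over both treatments. It turned Slc18a2 to 0.31 for insulin in colonized mice, Slc18a1 to -0.28 after saline, Maoa to 0.0032 for insulin in germ-free mice and 0.19 over both treatments, and Maob to 0.13 after insulin and 0.015 over both treatments. The adipocyte covariate called 0 after insulin and turned Slc6a2 to -0.44 for the difference, Maoa to -0.48 after insulin and Slc18a1 to 0.10 over both treatments. The neuron covariate called 1 gene for insulin in germ-free mice (Slc6a2), 1 after saline, 2 after insulin and 3 over both treatments. It turned Slc6a2 to 0.12 for insulin in colonized mice, -0.86 for the difference, 0.78 after saline and 0.35 over both treatments (the last 2 called), Slc18a2 to 0.23 for insulin in colonized mice, Slc18a1 to -0.57 after saline and Maoa to 0.11 over both treatments.

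Over all settings, the number of probe sets called was 0 to 74 for insulin in colonized mice (30 in the reported fit), 1 to 545 in germ-free mice (86), 0 to 149 for the difference (7), 27 to 252 for mean insulin (82), 3 to 3832 after saline (1351), 0 to 3727 after insulin (1521) and 1 to 7030 over both treatments (3454). Where 0 were called by limma, 1380 had an unadjusted p under 0.05 for insulin in colonized mice, 803 to 1295 for the difference and 1316 to 1740 after insulin. The median of all probe sets in the germ-free comparisons was -0.11 under a second quantile normalization and 0.04 under median centring, against -0.04 to -0.03 in the reported fit.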
